A study of Arabidopsis thaliana with 8 samples.

Results

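The 3 nuclear genes of the mitochondrial transcription termination factor (mTERF) family, AT4G09620, AT1G61990 and AT1G62010, are described here across 8 Arabidopsis thaliana samples. They are 3 of the 691 genes that have a probe of their own on the array, meaning a probe that the platform annotation pairs with exactly 1 gene. Each of them had 1 such probe. They were chosen by their petc and WT intensities, which differed in opposite directions within 1 family. That difference is therefore given as a description, with no p-value, and nothing is read from a test of it.

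Total RNA of 4 samples of the petc mutant and of 4 WT samples, all of the ecotype Landsberg, was measured on expression arrays with 3439 probes. The petc mutant has no Rieske protein, the iron-sulfur subunit of the cytochrome b6f complex, which carries electrons between the photosystems. The comparison concerns transcript abundance in plants without that protein. The sources used here do not give tissue, plant age, growth conditions, the nature of the petc allele or the number of plants behind a sample. The p-values therefore rest on the spread among these 8 samples, taken as independent unless stated, and that spread may be technical. PETC itself is not analysed here, and the labels were not checked through it.

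Proteins of the mTERF family are built from repeats of a short helical motif and bind nucleic acids. The family is named after a human mitochondrial protein that ends transcription in the mitochondrial genome. Flowering plants carry many more family members than animals, they are encoded in the nucleus, and most of those studied work in chloroplasts or mitochondria, where they act in transcription, intron splicing or ribosome assembly. No specific role is given here for the 3 genes, since the gene tables name them only by locus.

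AT1G61990 and AT1G62010 lie close together on chromosome 1, and AT4G09620 lies apart from them on chromosome 4. In the gene order of the RefSeq assembly TAIR10.1, 2 genes separate AT1G61990 from AT1G62010, the protein-coding AT1G62000 and the noncoding AT1G08447. The run of 7 genes that starts at AT1G61960 and ends at AT1G62010 holds 5 genes of the mTERF list. Neighbouring family members that arose by duplication can share sequence, and a probe can then bind RNA of more than 1 of them. Probe sequences were not used here, so how far the probes for AT1G61990 and AT1G62010 separate the genes of this run was not tested.

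Intensities are the deposited values on a linear scale in arbitrary units. Between 2978 and 3009 probes per sample were above 0, and the sum of intensities was 3287 to 3440. None of the 3 probes was at 0 in any sample. Among the probes above 0 on each array, the probe of AT4G09620 stood between the percentiles 51.4 and 92.8 for brightness, that of AT1G61990 between 72.6 and 89.2, and that of AT1G62010 between 72.0 and 87.2. These positions describe how far each signal stood above the dim end of the array, and they do not rank the transcripts against each other.

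Among the 3 genes, AT4G09620 was the one with higher values in petc. Its intensity was 1.85, 1.93, 1.31 and 1.35 in petc replicates 1 to 4, against 0.724, 0.841, 0.399 and 0.412 in WT replicates 1 to 4. Every petc value lay above every WT value. The mean was 1.61 ± 0.325 in petc and 0.594 ± 0.223 in WT (SD, n = 4 each). On normalised log2 values the difference, petc minus WT, was 1.44 ± 0.27 (SE), or 2.72-fold. The lowest petc sample stood 0.62 above the highest WT sample on that scale.

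AT1G61990 had lower values in petc. The 4 petc replicates had intensities of 0.796, 0.848, 0.735 and 0.693, against 1.24, 1.31, 1.14 and 1.17 in the 4 WT replicates. All petc values were below all WT values. Its mean was 0.768 ± 0.0680 in petc and 1.21 ± 0.0753 in WT (SD, n = 4 each). The log2 difference was -0.69 ± 0.12 (SE), a level 1.61-fold lower in petc.

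AT1G62010, close to AT1G61990 on the chromosome, also had lower values in petc. Its intensity was 0.744, 0.712, 0.743 and 0.682 in the petc replicates, against 1.17, 1.04, 1.14 and 1.11 in the WT replicates. Again no petc value reached the WT range. The means were 0.720 ± 0.0293 in petc and 1.12 ± 0.0543 in WT (SD, n = 4 each), with a log2 difference of -0.63 ± 0.09 (SE), or 1.55-fold lower in petc. The log2 differences of the 2 neighbouring genes were closer to each other than the SE of either. Over the 8 samples their Pearson r was 0.94, which includes the difference that chose both genes. For deviations from the group means their r was 0.31. That r was 0.80 for AT1G61990 with AT4G09620, and -0.05 for AT1G62010 with AT4G09620.

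**Figure D1:**
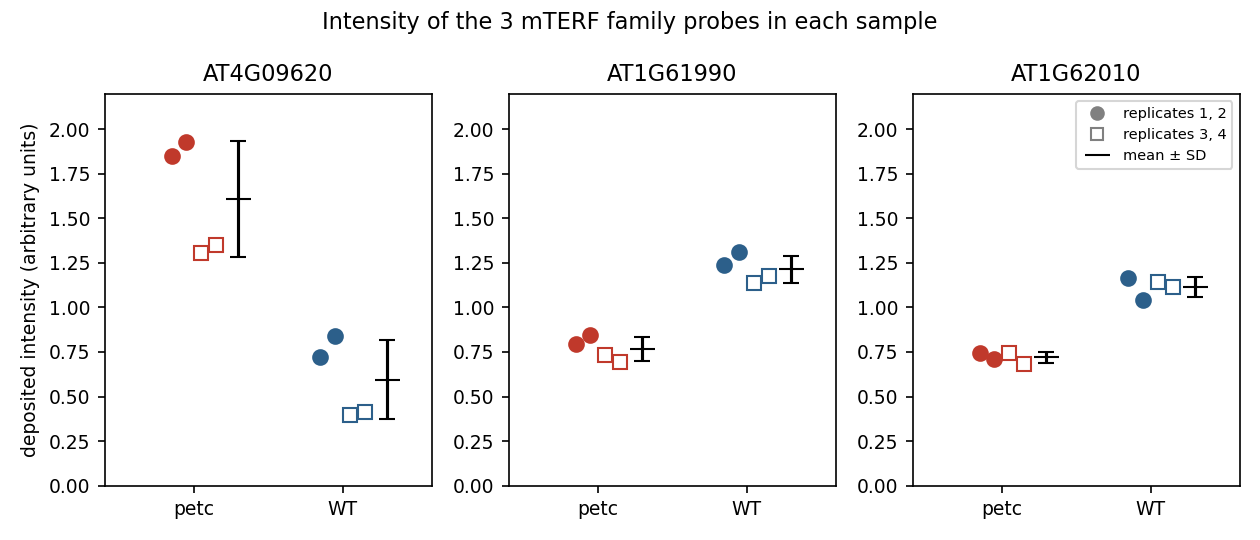
Deposited intensity (arbitrary units) of each of the 3 probes in the 4 petc and 4 WT samples, one point per sample, with filled circles for replicates 1 and 2, open squares for replicates 3 and 4, and the mean ± SD beside each group. AT4G09620 lies at 1.31 to 1.93 in petc and 0.399 to 0.841 in WT, while AT1G61990 and AT1G62010 lie below 0.85 in petc and above 1.0 in WT.

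All 3 genes passed the limma threshold (adjusted p below 0.05 over all tested probes), 1 higher and 2 lower in petc, where 27.9% of the 2947 tested probes passed, 12.7% higher and 15.3% lower. All 3 also had groups that did not overlap, as did 32.0% of the tested probes. Since the same contrast chose the genes, nothing is read from these counts. Over all tested probes the log2 difference had a median of -0.02, with 5% of probes below -0.99 and 5% above 0.90. AT4G09620 thus lay beyond the upper of these limits, and AT1G61990 and AT1G62010 lay inside the lower one.

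**Figure D2:**
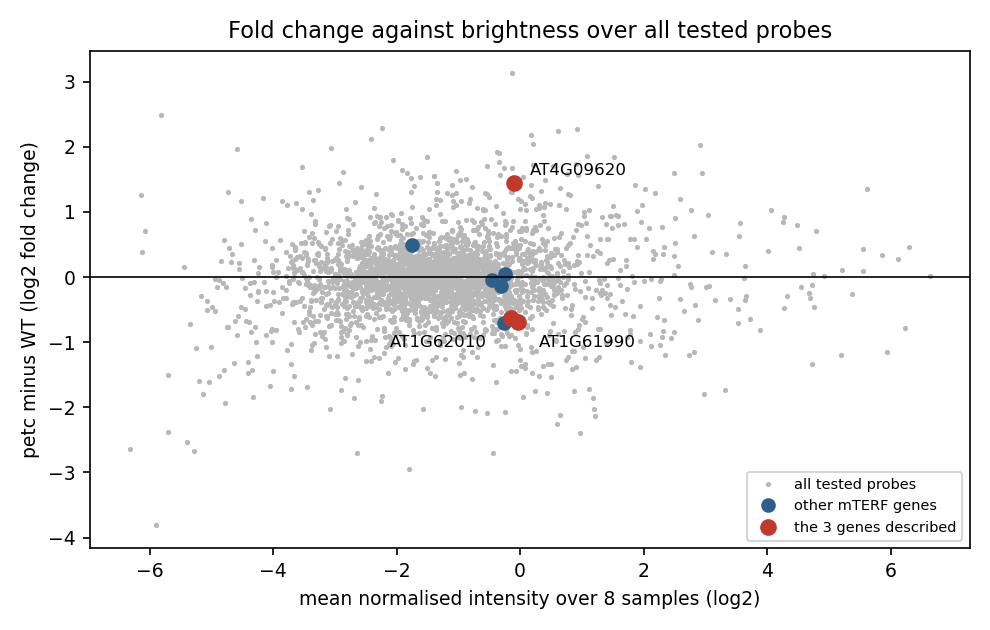
Log2 difference, petc minus WT, against mean normalised log2 intensity for the 2947 tested probes (grey), with the 3 genes described in red and the 5 other mTERF genes in blue. AT4G09620 stands at 1.44, above the 0.90 that 5% of probes exceeded, and AT1G61990 and AT1G62010 stand at -0.69 and -0.63.

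In AT4G09620 the samples of each group formed pairs of close values, replicates 1 and 2 on one side and replicates 3 and 4 on the other. Its mean log2 value was lower in replicates 3 and 4, and the difference from replicates 1 and 2 was -0.47 in petc and -0.93 in WT. For AT1G61990 the same difference was -0.30 in petc and -0.16 in WT, and for AT1G62010 it was -0.13 in petc and 0.05 in WT. The labels do not say what the replicate numbers mark. The pooled within-group SD on the log2 scale was 0.43 for AT4G09620, 0.14 for AT1G61990 and 0.09 for AT1G62010, where the median over all tested probes was 0.23.

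For each of the 3 genes the direction was the same in every replicate number, as it must be where the groups do not overlap. For AT4G09620, petc minus WT was 1.27, 1.15, 1.65 and 1.69 on the log2 scale in numbers 1 to 4. Averaged over numbers 1 and 2 the difference was 1.21, and over numbers 3 and 4 it was 1.67. On the log2 scale the gap between petc and WT was thus wider in the samples where the gene's values were lower. In deposited intensities the gap was narrower there. Petc had 1.31 and 1.35 against 0.399 and 0.412 in replicates 3 and 4, and 1.85 and 1.93 against 0.724 and 0.841 in replicates 1 and 2. For AT1G61990 it was -0.62, -0.61, -0.69 and -0.82. For AT1G62010 it was -0.62, -0.46, -0.68 and -0.77. The difference between numbers 1 and 2 and numbers 3 and 4 was not tested, because it is known only from these data. AT4G09620 was higher in petc in 4 of 4 numbers, and AT1G61990 and AT1G62010 were lower in 4 of 4. These counts follow from the lack of overlap and add nothing to it.

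**Figure D3:**
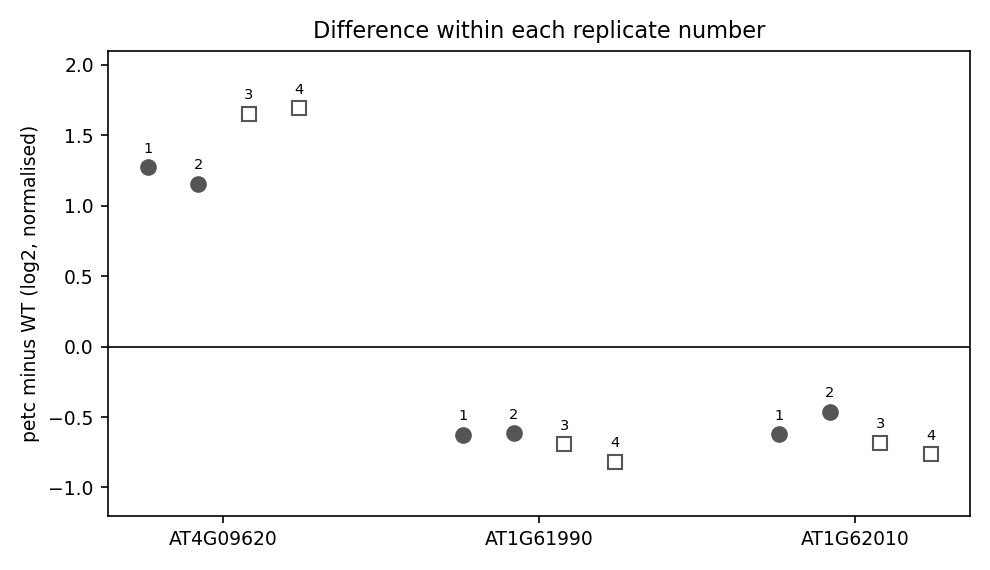
Petc minus WT on the normalised log2 scale within each replicate number, 1 to 4, for the 3 genes, with filled circles for numbers 1 and 2 and open squares for numbers 3 and 4. AT4G09620 lies between 1.15 and 1.69 and the other two genes between -0.82 and -0.46.

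Of the 35 genes in the family list, 5 others had a probe of their own. They are the members left when the 3 genes were picked with results of these data known, so they are not an independent set. In limma 1 of these 5 rose in petc and 0 fell at an adjusted p below 0.05, where among all single-gene probes 25.0% passed, 11.1% with higher and 13.9% with lower values in petc. At an unadjusted p below 0.05 there were 1 higher and 1 lower of the 5, beside 37.3% of all single-gene probes. The median log2 difference of the 5 was -0.04, close to the -0.02 of all tested probes. The list comes from general knowledge of the family, and the gene tables carry no family description for most of it.

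AT3G18870 was the one that passed. Its intensity was 0.317, 0.336, 0.392 and 0.396 in the petc replicates, against 0.268, 0.246, 0.250 and 0.217 in the WT replicates, with no overlap. It rose, with a log2 difference of 0.49 ± 0.10 (SE, limma adjusted p = 0.00764). It was higher in 4 of 4 numbers, which follows from the lack of overlap. The call was lost with numbers 1 and 2 alone (limma adjusted p = 0.0793) and with the samples of a group in numbers 1 and 2, or 3 and 4, taken as correlated readings (limma adjusted p = 0.0963), in a range of 0.00738 to 0.0963 over the alternatives.

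AT5G55580 encodes mTERF9, a chloroplast member of the family known for its part in chloroplast development and ribosome assembly. Its intensity was 0.476, 0.500, 0.893 and 0.824 in the petc replicates, against 0.746, 0.824, 1.37 and 1.42 in the WT replicates. The groups overlapped, because replicates 3 and 4 were brighter than replicates 1 and 2 in both. Within each number petc was the lower sample, with log2 differences of -0.61, -0.66, -0.71 and -0.87. Its log2 difference of -0.71 ± 0.30 did not pass without the block (limma adjusted p = 0.120), and it passed with the replicate number as a block (limma adjusted p = 0.00135), a fit in which 46.6% of all probes passed. The range over the alternatives was 0.00135 to 0.257.

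AT5G55580 and AT4G09620 thus had differences of opposite sign by replicate number as well as between petc and WT. In replicates 3 and 4 the log2 value of AT5G55580 was higher than in replicates 1 and 2 by 0.74 in petc and 0.90 in WT, while AT4G09620 was lower there in both groups. No test was made of this pattern.

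The other 3 family genes did not pass in any fit that was run. AT3G46950 averaged 0.721 ± 0.0664 in petc and 0.748 ± 0.0633 in WT (SD, n = 4 each), with a log2 difference of -0.04 ± 0.12 (limma adjusted p = 0.854, 0.614 to 0.975 over the alternatives). AT1G62150 averaged 0.845 ± 0.0338 in petc and 0.846 ± 0.0792 in WT, with a log2 difference of 0.04 ± 0.10 (limma adjusted p = 0.817, 0.490 to 0.995 over the alternatives). AT1G79220 averaged 0.756 ± 0.0494 in petc and 0.865 ± 0.0930 in WT, with -0.14 ± 0.11 (limma adjusted p = 0.372, 0.0928 to 0.975 over the alternatives). Within each of these 3 genes the petc and WT values overlapped.

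A further 6 probes are paired by the annotation with several genes of the family, and their signal cannot be assigned to 1 gene. Of these, 1 was at 0 in all 8 samples, and among the 5 others 2 fell and 0 rose in petc in limma, where 27.9% of all tested probes passed, 15.3% lower. At an unadjusted p below 0.05 the count was also 2 lower and 0 higher, beside 38.7% of all tested probes, and the call of 1 of the 2, probe 4021, was lost in 9 of 19 alternatives. Probe 1514 is paired with both AT1G61970 and AT1G61980, which lie in the same run as AT1G61990. Its intensity was 0.716, 0.690, 0.699 and 0.642 in the petc replicates, against 1.11, 1.10, 0.947 and 1.10 in the WT replicates. The groups did not overlap, and its log2 difference was -0.64 ± 0.10 (SE, limma adjusted p = 0.00238, 0.000575 to 0.0349 over the alternatives). This difference lay between the -0.69 of the AT1G61990 probe and the -0.63 of the AT1G62010 probe, and whether the 3 probes bind RNA of the same gene was not tested.

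Probe 1496 is paired with the same 2 genes as probe 1514 and had no such gap. It averaged 0.540 ± 0.0358 in petc and 0.515 ± 0.0512 in WT (SD, n = 4 each), with a log2 difference of 0.07 ± 0.11 (limma adjusted p = 0.723, 0.291 to 0.951 over the alternatives). Probe 1484 is paired with 4 genes, AT1G61990 among them. It had 0.569, 0.494, 0.583 and 0.628 in the petc replicates, against 0.525, 0.497, 0.512 and 0.515 in the WT replicates. Its log2 difference was 0.14 ± 0.09 (limma adjusted p = 0.301, 0.139 to 0.678 over the alternatives). The 2 probes that the annotation ties to AT1G61990, alone or with others, therefore gave different readings, one with non-overlapping groups and one with overlapping groups.

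Probe 4021, paired with AT1G56380, AT1G62085 and AT1G62110, averaged 0.365 ± 0.0377 in petc and 0.490 ± 0.0867 in WT (SD, n = 4 each). It fell, with a log2 difference of -0.44 ± 0.14 (limma adjusted p = 0.0451, 0.0206 to 0.207 over the alternatives). The deposited values of its groups overlapped. The call was lost without petc replicate 1 (limma adjusted p = 0.107), petc replicate 2 (0.0724), petc replicate 3 (0.108), petc replicate 4 (0.0672), WT replicate 3 (0.102) or WT replicate 4 (0.108). It was also lost with the values as deposited (limma adjusted p = 0.0678), with numbers 1 and 2 alone (0.159) and with correlated readings (0.207). Probe 4364, paired with AT1G78930 and AT5G55580, had 0.04 ± 0.13 (limma adjusted p = 0.873, 0.206 to 0.980 over the alternatives), where the probe paired with AT5G55580 alone had -0.71.

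**Figure D4:**
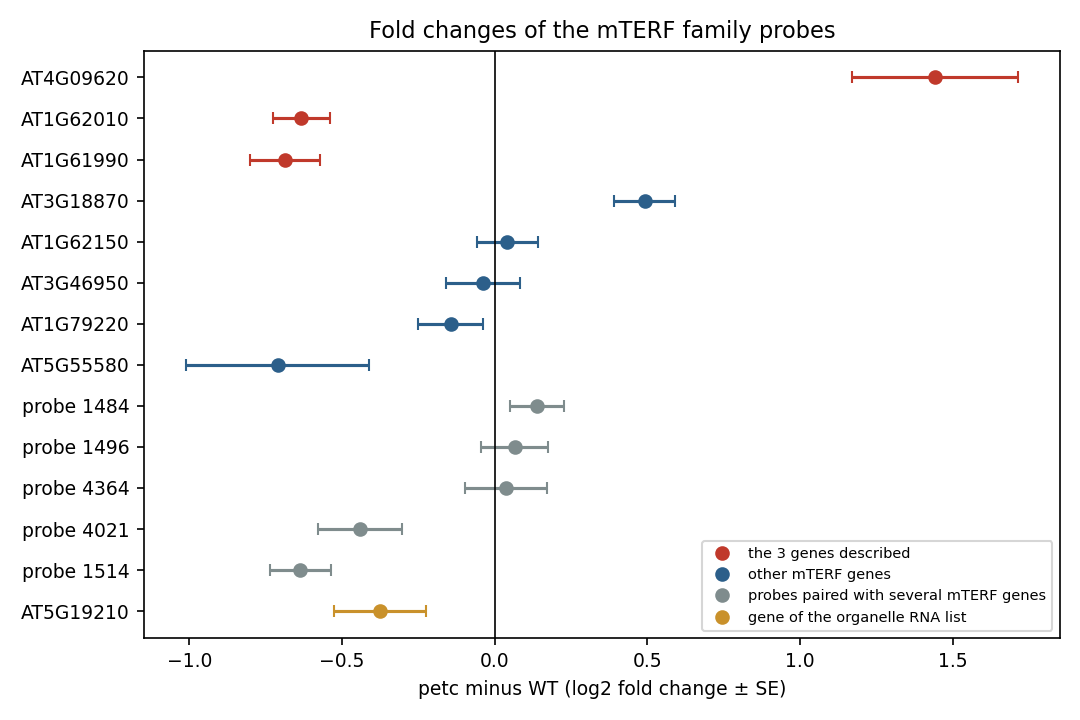
Log2 difference, petc minus WT, with its SE for every tested probe paired with genes of the mTERF list and for AT5G19210 (limma, n = 4 per group). AT4G09620 at 1.44 and AT3G18870 at 0.49 lie to the right of 0, and AT1G61990, AT1G62010, AT5G55580 and the probes 1514 and 4021 lie to the left at -0.71 to -0.44.

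Few genes of the other lists used here had a single-gene probe, and genes of organelle gene expression outside these lists were not counted. Of the 28 listed genes for organelle RNA polymerases, sigma factors and the plastid transcription complex 0 had such a probe, and of the 37 listed genes for organelle RNA binding, splicing, editing and decay 1 did. That gene, AT5G19210, had intensities of 0.632, 0.615, 0.757 and 0.916 in the petc replicates, against 0.814, 1.005, 0.887 and 1.09 in the WT replicates. Its log2 difference of -0.37 ± 0.15 did not pass without the block (limma adjusted p = 0.104) and passed with the replicate block (limma adjusted p = 0.0216), in a range of 0.0216 to 0.441 over the alternatives. With the other 5 family genes, 1 of 6 listed genes passed, where 25.0% of single-gene probes did. With the replicate block 3 of 6 passed, where 46.6% of all tested probes did. With correlated readings 0 of 6 passed in limma (1 at an unadjusted p below 0.05), where 345 of all 2947 tested probes passed.

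For each of the 3 genes, the single-gene probes with the most similar profile over the 8 samples were found by Pearson's r among 586 probes. For AT4G09620 they were AT4G27510 (r = 0.987), AT2G31800 (r = 0.982) and AT3G16310 (r = 0.982). All 3 were also higher in petc, with smaller differences than AT4G09620. AT4G27510 had a log2 difference of 0.69 ± 0.13, AT2G31800 of 0.39 ± 0.11 and AT3G16310 of 0.23 ± 0.08. For AT1G61990 they were AT3G54210 (r = 0.993), AT5G06990 (r = 0.992) and AT1G30700 (r = 0.990), with log2 differences of -0.85 ± 0.12, -0.82 ± 0.15 and -1.27 ± 0.15. For AT1G62010 they were AT1G24040 (r = 0.985), AT5G52960 (r = 0.983) and AT2G36480 (r = 0.980), with log2 differences of -0.58 ± 0.08, -0.51 ± 0.09 and -2.13 ± 0.12. All probes share the 8 arrays and the same gap between petc and WT, and an r of this size over 8 samples is a description of likeness alone. No gene was among the 3 most similar of more than 1 of the 3 genes. Between AT4G09620 and the other 2 this follows from the opposite directions they were chosen for, and nothing is read from it.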

How the data were processed

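Total RNA of 4 petc and 4 WT samples was measured, and groups and replicate numbers were taken from the sample titles. The deposited table holds linear intensities, 1 per probe and sample. The sources used here do not give the authors' scanner, background correction or scaling. Probe names came from GEO's platform annotation (692 probes with 1 gene, 870 with several, 1877 with none), brought up to date through RefSeq gene identifiers (TAIR10.1, 691 of 692 found). No other per-sample columns were present.

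Values of 0 were treated as missing, the rest were taken to log2 and quantile normalised, and the 2947 probes with 3 or more values per group were fitted with limma 3.58.1 (lmFit, eBayes) in R 4.3.3, with Benjamini-Hochberg adjustment over all of them and a threshold of 0.05. The step was tested on simulated data. Those values were drawn independently, so the test did not cover paired or correlated samples. Printed intensities are deposited values, while log2 differences come from normalised ones. The number of arrays limits the precision. Figures were drawn with matplotlib 3.10.9.

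The genes named are the 3 described, every list gene with a single-gene probe, and the 3 most similar single-gene probes of each. Probes paired with several family genes were added after their values were seen. The 3 genes and the lists were chosen with earlier results of these data known. A list of pentatricopeptide repeat genes was planned by description, which the gene tables do not carry, and it is not analysed here.

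Samples with the same replicate number deviated together from their group means (Pearson r of 0.586 to 0.649 across 2911 probes). Between petc and WT samples of different numbers r ranged from -0.555 to 0.472, so some of those also deviated together. For the fit with a block and the differences within each number, the number was taken to pair the samples, since r was highest within it. The pairing comes from the data, not the labels, and the fit without the block is the one reported. With the block, the SE was 0.12 for AT4G09620, 0.07 for AT1G61990 and 0.08 for AT1G62010. With correlated readings it was 0.29, 0.15 and 0.16, and the log2 differences were the same in both fits. Alternatives covered scaling, offsets, filters, the variance model, the replicate numbers and leaving out each sample.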

Additional observations from a re-analysis of the deposited data

Results flagged for a closer look

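Within each group of 4 samples, the highest and lowest normalised log2 values of 14 probes were set against the other 3 samples, 28 groups in all, and 1 stood apart where chance gives about 1.4. AT1G62150 had a log2 value of -0.0769 in WT replicate 2, while the median of the remaining WT samples was -0.332. No value of AT4G09620, AT1G61990 or AT1G62010 stood apart in this way. The rule sets the gap at either end against the range, so it could not flag AT4G09620, whose values formed close pairs.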

How the results depend on the processing

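AT4G09620 stayed higher in petc, and AT1G61990 and AT1G62010 lower, under all 19 alternatives run for each. The genes were chosen for this difference and their groups do not overlap, so nothing is read from that count. Only an offset of 1 before log2, which compresses the scale by construction, moved them by more than their replicate SD, to 0.69, -0.33 and -0.30. Without each sample in turn the values were 1.30 to 1.64, -0.74 to -0.62 and -0.67 to -0.59.

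The count of 823 probes past the threshold (373 higher, 450 lower) became 1374 with the replicate block (654 higher, 720 lower) and 345 with correlated readings (163 higher, 182 lower), and it was 630 to 729 without each sample in turn. As deposited, 448 were higher and 385 lower. Listed genes past the threshold numbered 1 of 6, against 3 with the replicate block, 2 in numbers 3 and 4 alone, and 0 with correlated readings in limma (1 at an unadjusted p below 0.05). Numbers 1 and 2 alone also gave 1, AT5G55580, which fell there, in place of AT3G18870. Of all tested probes, 1374 of 2947 passed with the block and 345 of 2947 with correlated readings. In numbers 3 and 4 alone 1032 of 2929 passed, and in numbers 1 and 2 alone 695 of 2941. The share of all probes at an unadjusted p below 0.05 with correlated readings is not given here. Nothing is read from the listed-gene counts. The replicate block changed no call other than those of AT5G55580 and AT5G19210 among the listed genes and several-gene probes. Fits of numbers 1 and 2, or 3 and 4, alone compare 2 samples with 2.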
